A study of Mus musculus with 6 samples.

Results

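The phagocyte NADPH oxidase is the enzyme complex with which neutrophils and macrophages make superoxide, and its subunit genes were followed here in mouse myeloid progenitors whose differentiation was started in different ways. The members were taken by gene symbol: Cybb, Cyba, Ncf1, Ncf4, Rac1 and Rac2, 6 of the 34199 genes in the count files. All 6 passed the filter on low counts that left 12460 genes for testing, Cybb through the CAF-1 OFF and HOXA9 OFF libraries, since its control libraries held 8 and 1 counts.

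The cells were granulocyte-macrophage progenitors of C57Bl/6 background (the labels call them Lys-GFP-ER-HoxA9 cells), kept dividing by a HOXA9 transcription factor fused to an estrogen receptor domain and carrying a GFP reporter under the lysozyme promoter. All 6 libraries were made at 24 h from cells in medium with stem cell factor. The 2 control libraries came from cells with IPTG and with β-estradiol at 150 ng/ml, so HOXA9 stayed active. The 2 CAF-1 OFF libraries came from cells with β-estradiol in which 500 µM IPTG switched on an shRNA against Chaf1b. CAF-1 is a complex that deposits histones on newly made DNA, and Chaf1b encodes part of it. The 2 HOXA9 OFF libraries came from cells washed free of β-estradiol, which inactivates the fusion protein, and whether IPTG was present in them is not stated. The study worked with clonal lines carrying inducible shRNA vectors, and the labels do not say which clone, which vector, or how many independent cultures each library came from. P-values therefore measure the spread between these libraries, which may be technical.

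The libraries held between 16773560 and 25170898 reads assigned to genes, and 3 counts corresponded to between 0.118 and 0.182 CPM (counts scaled to a library of 1000000 reads). Libraries of a group differed by far more than sampling noise, with a chi-square per degree of freedom of 21.4 to 28.9. The targeted gene Chaf1b was at 90.0 and 105 CPM in control and down to 17.8 and 12.1 in CAF-1 OFF. This was a log2 fold change of -2.71 ± 0.196 (SE, adjusted p = 0.0198 by edgeR's quasi-likelihood test). In HOXA9 OFF it was lower than control too, at 64.6 and 61.4 CPM (-0.63 ± 0.181, adjusted p = 0.0396 by the same test). The 7 markers of granulocyte-macrophage progenitors summed to 11310 to 16770 CPM in each library, a sum carried mainly by the granule protein genes Mpo and Ctsg, and the receptor gene Flt3 was down to 5.02 and 3.46 CPM in HOXA9 OFF. The neutrophil markers summed to between 99.7 and 109 CPM in control, 432 to 695 in CAF-1 OFF and 463 to 828 in HOXA9 OFF. In CAF-1 OFF most of that sum was Mmp8, at 332.3 and 630.2 CPM, against 56.6 and 62.0 in HOXA9 OFF. In bulk RNA, more cells of a type and more RNA per cell cannot be told apart.

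The oxidase is assembled from parts kept separate in the resting cell. Cybb encodes gp91phox (NOX2), the membrane protein that carries electrons from NADPH to oxygen, and Cyba encodes p22phox, its membrane partner, without which gp91phox is unstable. Ncf1 (p47phox) and Ncf4 (p40phox) encode the cytosolic organiser and a phosphoinositide-binding regulator. On stimulation they move to the membrane together with a Rac GTPase, which is mainly Rac2 in neutrophils, while Rac1 is found in most cell types. Inherited loss of gp91phox, p22phox, p47phox or p40phox causes chronic granulomatous disease. Cybb is the late gene of the set, silent in progenitors and switched on in maturing phagocytes. Its promoter is known for PU.1, IRF8, CCAAT-binding factors and HOX proteins.

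On the NCBI m37 (mm9) assembly with the GENCODE annotation, Cybb lies on chromosome X at 9012378 to 9064897 on the minus strand with 15 exon blocks. Cyba lies on chromosome 8 at 124948672 to 124956840, minus strand, and Ncf1 on chromosome 5 at 134695923 to 134705495, minus strand. Chromosome 15 carries both Ncf4, at 78075231 to 78093010 on the plus strand, and Rac2, at 78389599 to 78403213 on the minus strand. Rac1 lies on chromosome 5 at 144266346 to 144288904, minus strand. Several of these genes can share or lose reads. Of the exon bases of Rac1, 49.7% have a copy of at least 95% identity elsewhere, among them 907 bases on chromosome 8 from 38313910 and 521 on chromosome 15 from 93244167. For the other members the share is 6.49% or less. Ncf1 shares 361 exon bases with Gtf2ird2 on the opposite strand. The strand setting of the counting is not given in the sources used here, so reads of that stretch could have gone to either gene or to neither. The levels of Rac1 and Ncf1 are uncertain to that extent.

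The promoters of 3 of the 6 members (Cybb, Cyba and Ncf1) were found in the RefSeq promoter table, which uses GRCm38.p6, a later build than the count files. They are shown because no other member had an entry there. All 3 were called higher in HOXA9 OFF, as was Ncf4, which had no entry. Each line gives the 250 bases before the annotated start, read 5′ to 3′ on the gene's own strand, here the minus strand for all 3. Capitals mark every match, on either strand, to 6 motifs: the ETS core GAGGAA, the CCAAT box, the HOX core TTTAT, the PBX-HOX site TGATTNAT, the C/EBP site TTGCNNAA, and the IRF element, a repeat of GAAA with any 2 bases between. The search window also took in the first 50 transcribed bases, which are not shown.
Cybb, chrX:9469325-9469574: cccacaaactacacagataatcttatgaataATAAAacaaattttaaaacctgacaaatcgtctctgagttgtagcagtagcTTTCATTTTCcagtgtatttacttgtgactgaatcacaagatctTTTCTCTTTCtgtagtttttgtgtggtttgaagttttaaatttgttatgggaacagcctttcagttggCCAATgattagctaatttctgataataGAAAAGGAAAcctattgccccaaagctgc
Cyba, chr8:122432941-122433190: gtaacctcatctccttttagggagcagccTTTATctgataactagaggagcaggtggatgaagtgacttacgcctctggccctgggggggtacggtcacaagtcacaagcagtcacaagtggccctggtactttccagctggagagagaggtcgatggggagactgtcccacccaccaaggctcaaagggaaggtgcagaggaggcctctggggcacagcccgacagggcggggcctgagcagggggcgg
Ncf1, chr5:134229626-134229875: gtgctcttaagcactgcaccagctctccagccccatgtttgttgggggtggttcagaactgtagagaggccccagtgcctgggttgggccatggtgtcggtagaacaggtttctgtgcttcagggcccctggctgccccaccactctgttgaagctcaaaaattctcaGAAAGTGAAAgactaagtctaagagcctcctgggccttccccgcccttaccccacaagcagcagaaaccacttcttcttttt

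In the Cybb window the IRF element matched 3 times, at positions -168 to -159 and -124 to -115 on the opposite strand and at -29 to -20 on the gene's strand. A CCAAT box stood at -56 to -52 and a HOX core at -219 to -215. An ETS core on the opposite strand fell just inside the transcript, at 10 to 15. The Ncf1 window had 1 IRF element, at -82 to -73, and the Cyba window had a HOX core at -221 to -217 and no IRF element. Among all 32841 windows of this length in the table, 3.44% held an IRF element, 28.3% an ETS core, 37.4% a CCAAT box, 40.0% a HOX core, 10.8% a C/EBP site and 3.22% a PBX-HOX site. No C/EBP or PBX-HOX match was found in the 3 windows. The HOX core overlapped no other motif. These are matches of letters, not measured binding sites.

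Among the membrane subunits, Cybb separated the 3 groups most widely. Its counts were 8 and 1 in control, 35 and 56 in CAF-1 OFF, and 1076 and 382 in HOXA9 OFF. On the CPM scale these were 0.314 and 0.0581 in control, 1.82 and 2.84 in CAF-1 OFF, and 51.9 and 23.2 in HOXA9 OFF. The 3 groups did not overlap, with control lowest, CAF-1 OFF in between and HOXA9 OFF highest, although the HOXA9 OFF libraries differed from each other by more than any other member did in that group. The group mean was 0.186 ± 0.181 CPM in control. It was 37.5 ± 20.3 in HOXA9 OFF and 2.33 ± 0.719 in CAF-1 OFF (SD, n = 2). Control replicate 2, with 1 count, lay below the level of 3 counts, and the exact Poisson 95% interval of its level reached from 0.00147 to 0.323 CPM.

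Cyba, the partner of Cybb, was already abundant in progenitors. It was at 327.5 and 299.5 CPM in control and 308.1 and 240.7 in CAF-1 OFF, and at 656.3 and 484.0 in HOXA9 OFF. The control and CAF-1 OFF libraries overlapped, and both HOXA9 OFF libraries lay above all others. The mean rose from 313.5 ± 19.8 CPM in control to 570.1 ± 122 in HOXA9 OFF (SD, n = 2).

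The cytosolic subunits followed the order of Cyba rather than that of Cybb. Ncf1 was at 281.8 and 243.2 CPM in control, 261.0 and 222.0 in CAF-1 OFF, and 665.5 and 598.5 in HOXA9 OFF. Ncf4 was at 122.9 and 115.0 CPM in control, 111.8 and 93.7 in CAF-1 OFF, and 224.5 and 191.0 in HOXA9 OFF. For Ncf1 the CAF-1 OFF libraries overlapped control, and for Ncf4 both lay just below control.

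The Rac genes had the smallest fitted changes of the 6 members in each comparison. Rac1 was at 510.1 and 493.5 CPM in control, 518.2 and 450.4 in CAF-1 OFF, and 590.2 and 498.0 in HOXA9 OFF. The 3 groups of Rac1 overlapped. Rac2 was at 545.1 and 499.5 CPM in control, 595.8 and 489.5 in CAF-1 OFF, and 810.0 and 698.7 in HOXA9 OFF, where both libraries lay above the other 4.

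**Figure D1:**
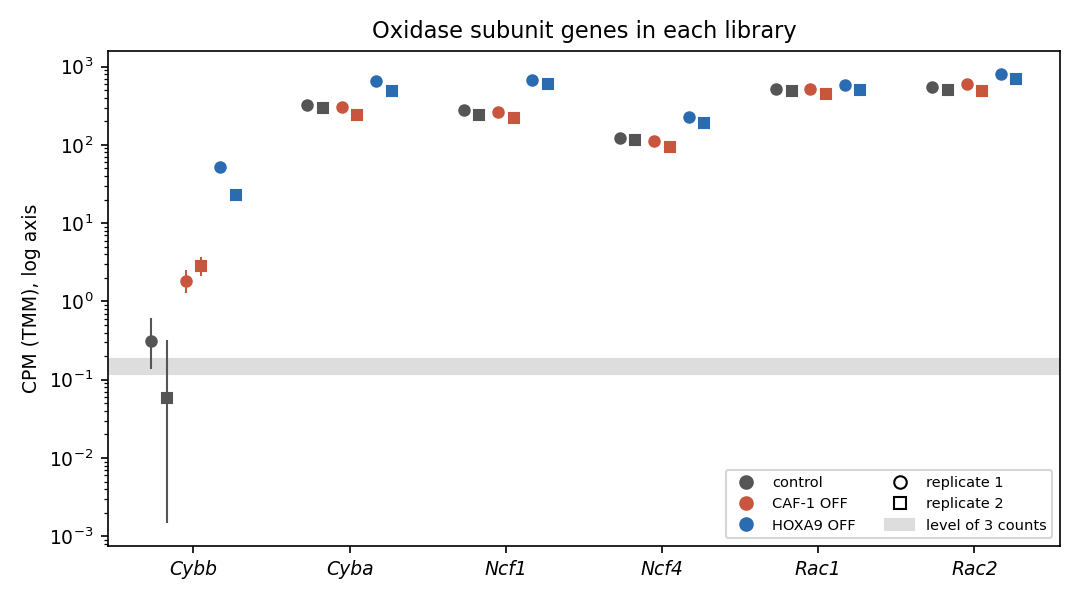
CPM (log axis) of the 6 members in each of the 6 libraries, with exact Poisson 95% intervals that cover counting error only (smaller than the symbol where not seen), and a grey band at the level of 3 counts (0.118 to 0.182 CPM). Cybb runs from 0.0581 CPM in a control library to 51.9 in a HOXA9 OFF library, whereas Rac1 stays between 450.4 and 590.2.

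The first comparison asked how loss of CAF-1, with HOXA9 still active, affected the oxidase genes. No member was called (0 of 6, at 1.5-fold or more and adjusted p under 0.05 by edgeR's quasi-likelihood test), where 0.0321% of the 12460 genes tested were called. Cybb alone had an unadjusted p under 0.05 (1 of 6, where 10.7% of all genes tested did). DESeq2 and edgeR's exact test each called 1 of 6, again Cybb, where they called 1.54% and 1.95% of all genes tested. The fitted change of Cybb was 3.45 ± 0.725 on the log2 scale (SE, 95% interval 1.73 to 5.17), which ranked 34 among increases, with an unadjusted p of 0.00221 and an adjusted p of 0.199. As a ratio of summed counts (91 against 9, scaled by library size), Cybb was 11.1 times as high in CAF-1 OFF, with a counting interval of 5.58 to 25.

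The call for Cybb depended on the test. It passed with DESeq2 (adjusted p = 7.11e-05), with edgeR's exact test (2.24e-05), and with the quasi-likelihood test when no expression filter was used (5.13e-07), while over the other planned settings the adjusted p lay between 0.139 and 0.725. Its size rested on the control libraries: without control replicate 1 the log2 fold change was 5.18, and without control replicate 2 it was 2.87. In every one of these fits it was positive.

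The other members gave small fitted changes in CAF-1 OFF with intervals that included 0. On the log2 scale Cyba was at -0.19 (95% interval -0.62 to 0.24), Ncf1 at -0.12 (-0.43 to 0.19) and Ncf4 at -0.21 (-0.53 to 0.10). Rac1 was at -0.05 (-0.34 to 0.24) and Rac2 at 0.06 (-0.26 to 0.37). For Ncf1, Ncf4, Rac1 and Rac2 these intervals lay within the 1.5-fold limit of 0.585 on either side, and for Cyba the lower end lay beyond it. Of the 6 members, 2 had CAF-1 OFF and control libraries that did not overlap, Cybb above and Ncf4 below, against 40.1% of all genes tested.

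The second comparison asked how the oxidase genes moved when HOXA9 was inactivated, which starts the ordinary differentiation of these cells. Of the 6 members, 4 were called higher and none lower, where 13.0% of all genes tested were called higher and 8.97% lower. The 4 were both membrane subunits and both cytosolic members. In 5 of 6 members (all but Rac1) the HOXA9 OFF libraries lay wholly above control, against 35.1% of all genes. The median log2 fold change was 0.834 over the 6 members and -0.00349 over all genes tested.

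Cybb rose most, by 7.46 ± 0.663 on the log2 scale (SE, adjusted p = 0.000893), rank 20 among increases. Since its control level was near the floor, the ratio of summed counts (1458 against 9) was 186 with a counting interval of 97.6 to 407. Without control replicate 1 the fitted change was 9.18, and without HOXA9 OFF replicate 1 it was 6.77, and the call stood in both.

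Ncf1 rose 2.41-fold (log2 fold change 1.27 ± 0.131, adjusted p = 0.0014) and Ncf4 1.75-fold (0.80 ± 0.133, adjusted p = 0.00592). Gtf2ird2, which shares exon bases with Ncf1, was at 29.7 and 32.8 CPM in control and 41.5 and 40.5 in HOXA9 OFF, a log2 fold change of 0.39 ± 0.115. Cyba rose 1.82-fold (0.86 ± 0.181, adjusted p = 0.0138), and this call was the least secure of the 4. It was lost without control replicate 1 (0.92, adjusted p = 0.0531), without control replicate 2 (0.80, 0.0859) and without HOXA9 OFF replicate 1 (0.62, 0.075).

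The Rac genes parted from each other in this comparison. Rac2 reached an adjusted p of 0.0261 at 1.44-fold (log2 fold change 0.53 ± 0.134), short of the fold minimum. Without HOXA9 OFF replicate 2 it was at 0.64 with an adjusted p of 0.0462 and passed. Rac1 was at 0.12 ± 0.123 (adjusted p = 0.515), and its 95% interval, -0.18 to 0.41, lay within the 1.5-fold limit.

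The third comparison set CAF-1 OFF directly against HOXA9 OFF. Again 4 of 6 members were called, all lower in CAF-1 OFF, where 12.6% of all genes tested were called lower and 9.56% higher. These were Cybb (-4.01 ± 0.501, adjusted p = 0.00257), Cyba (-1.06 ± 0.182, 0.00724), Ncf1 (-1.39 ± 0.132, 0.00109) and Ncf4 (-1.02 ± 0.133, 0.00299). In counts, Cybb was 16.8 times as high in HOXA9 OFF as in CAF-1 OFF (1458 against 91, counting interval 13.6 to 21.0), and without HOXA9 OFF replicate 1 its fitted change was -3.30. In 5 of 6 members the CAF-1 OFF libraries lay wholly below HOXA9 OFF, against 33.7% of all genes.

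Rac2 was lower in CAF-1 OFF by 1.39-fold (-0.48 ± 0.134, adjusted p = 0.0372), again under the fold minimum, and without CAF-1 OFF replicate 1 it passed (-0.62, adjusted p = 0.0306). Rac1 was at -0.17 ± 0.123 (adjusted p = 0.345, 95% interval -0.46 to 0.13). The 3 comparisons share libraries in pairs, so their values are given side by side and are not independent of each other.

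**Figure D2:**
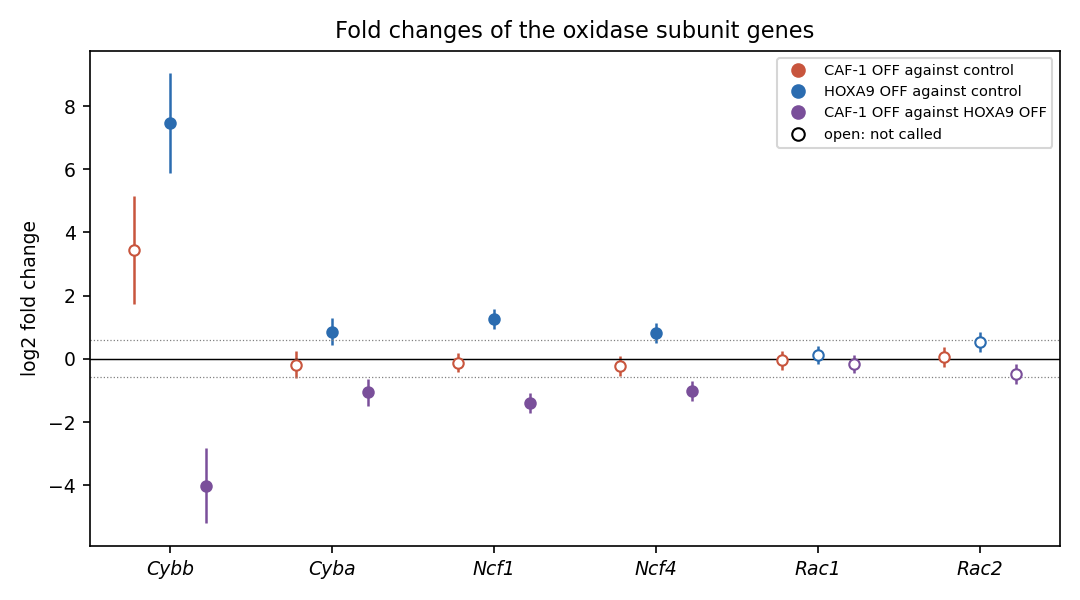
Log2 fold changes (with 95% intervals) of the 6 members in the 3 comparisons. Filled points passed 1.5-fold (dotted lines) and an adjusted p under 0.05, open points did not: Cybb, Cyba, Ncf1 and Ncf4 are filled for HOXA9 OFF against control and for CAF-1 OFF against HOXA9 OFF, and no gene is filled for CAF-1 OFF against control.

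Levels of the members were compared with each other as CPM per kb of exon. In control the order was Cyba (432 and 395 CPM per kb), Rac1 (192 and 186), Rac2 (180 and 164), Ncf1 (77.9 and 67.3), Ncf4 (60.8 and 56.9) and Cybb (0.0541 and 0.00999). Neighbours in this order did not overlap between libraries. In HOXA9 OFF, Cyba stayed on top (866 and 638), Rac2 came next (267 and 230) and Rac1 followed (223 and 188), and Cybb stayed last (8.94 and 3.99). Ncf1 in HOXA9 OFF (184 and 166 CPM per kb) came close to Rac1, and Ncf4 followed at 111 and 94.5.

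The membrane partners thus differed greatly in RNA level. Cyba exceeded Cybb per kb by 7986-fold and 39530-fold in the control libraries, the second of these resting on 1 Cybb count. The ratio was 1298 and 650 in CAF-1 OFF, and 96.9 and 160 in HOXA9 OFF. The ratios did not overlap between the 3 groups. Among the cytosolic members, the level per kb of Ncf1 over that of Ncf4 was 1.28 and 1.18 in control, 1.31 and 1.32 in CAF-1 OFF, and 1.66 and 1.75 in HOXA9 OFF. Ncf1 therefore gained on Ncf4 in HOXA9 OFF by more than the libraries of a group differed.

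The share of Rac2 in the summed Rac1 and Rac2 level per kb was 48.3% and 46.9% in control, 50.1% and 48.7% in CAF-1 OFF, and 54.5% and 55.1% in HOXA9 OFF. The mean was 47.6% ± 0.953 in control and 54.8% ± 0.384 in HOXA9 OFF (SD, n = 2), a difference of 7.19 percentage points. The exact permutation test, two-sided, gave p = 0.333, the smallest that 2 libraries against 2 can give, and the same p for the 1.8 points between CAF-1 OFF and control. With the length of the longest transcript in place of all exons the mean shares were 44.3% for control, 46.1% for CAF-1 OFF and 51.5% for HOXA9 OFF, the same order as with all exons, where CAF-1 OFF was at 49.4%. Reads of Rac1 that also match its copies would be missing from its level in all groups.

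**Figure D3:**
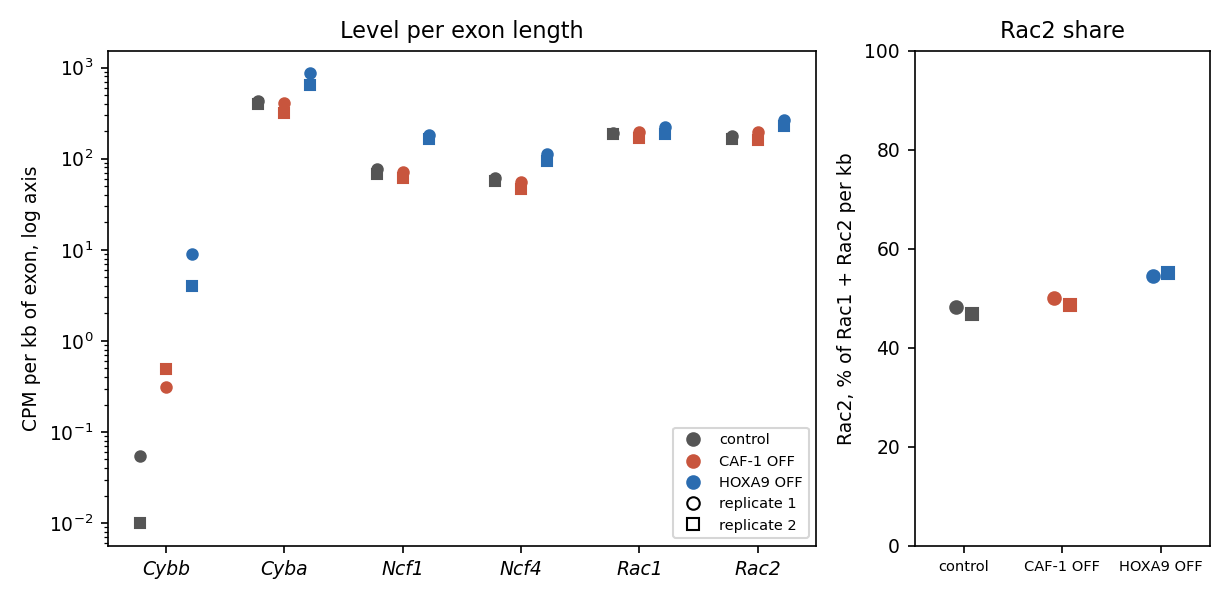
Left, CPM per kb of exon (log axis) of the 6 members in each library. Right, Rac2 as a percentage of the summed Rac1 and Rac2 level per kb, on an axis from 0 to 100. Cyba is highest and Cybb lowest in all 6 libraries, and the Rac2 share is 54.5% and 55.1% in HOXA9 OFF against 46.9% and 48.3% in control.

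The genes whose profiles over the 6 libraries were most like those of the called members were found by the distance between centred log2 CPM values. For Cybb these were S100a8 (distance 1.23), Chi3l3 (1.43) and S100a9 (1.44), against a median distance of 7.24 over all genes. S100a8 and S100a9 encode calprotectin, an abundant calcium-binding protein of neutrophils, and Chi3l3 encodes Ym1, a secreted lectin of myeloid cells. S100a8 was at 2.51 and 2.32 CPM in control, 17.4 and 16.6 in CAF-1 OFF, and 307.7 and 147.0 in HOXA9 OFF. It had the group order of Cybb and a wide gap between the HOXA9 OFF libraries. Since S100a8 was picked for its closeness to Cybb over these same libraries, this likeness follows from the choice. The nearest genes were Ccng2, Abtb1 and Irf2bp2 for Cyba, Sepx1, Fbxw4 and Mocs1 for Ncf1, and Irf2bp2, Arhgap9 and Ovol1 for Ncf4.

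Genes that act on the oxidase were read from 5 lists of 85 genes in all, 74 of them tested. Against control, CAF-1 OFF called none of the 74 by edgeR's quasi-likelihood test, 12 had an unadjusted p under 0.05 (10.7% of all genes tested did), and DESeq2 called 3 and edgeR's exact test 4. Those called by both were S100a8, S100a9 and Cebpe, and Meis1 was the fourth of the exact test. Without HOXA9 OFF replicate 1 or 2, 2 genes passed the quasi-likelihood test (S100a8 with adjusted p = 0.0065 and 0.00446, and S100a9 with 0.0313 and 0.0152). HOXA9 OFF against control called 25 of the 74 higher and 4 lower, where 13.0% of all genes tested were called higher and 8.97% lower. The counts of each list are to be read against the same shares, and those of CAF-1 OFF against HOXA9 OFF against 12.6% lower and 9.56% higher.

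The list of oxidase activation, which holds the kinases, exchange factors and chaperones that assemble or sustain the enzyme, had 13 of 21 genes higher and 1 lower in HOXA9 OFF against control, with a median log2 fold change of 0.701. Hvcn1, the proton channel that balances the charge moved by the oxidase, rose by 1.48 ± 0.120 (adjusted p = 0.00063), from 62.5 and 75.6 CPM to 195.1 and 190.8. Prkcd, a kinase that phosphorylates p47phox, rose by 1.22 ± 0.106 (0.000814), while its relative Prkca fell, at -1.34 ± 0.158 (0.00199). BC017643, the older name of Cybc1, whose protein is needed for gp91phox and p22phox to accumulate, rose by 0.68 ± 0.0996 (0.00407), from 77.0 and 76.1 CPM to 128.1 and 116.9. The others higher were Prkcb, Pak1, Vav1, Prex1, Arhgdib, Pik3cg, Pik3cd, Pik3r5, S100a8 and S100a9. CAF-1 OFF against HOXA9 OFF had 11 of the 21 lower and 1 higher, and without HOXA9 OFF replicate 1 it called 7 in all.

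Other oxidases were nearly absent. Of the 12 genes for other NADPH oxidases, their partners and further Rac-related GTPases, 4 were tested, and Nox3, Nox4, Duox1, Duox2, Duoxa1 and Noxa1 had 0 counts in all 6 libraries, which allows up to 0.118 to 0.182 CPM in each. Nox1 had at most 3 counts in a library and Duoxa2 at most 1. Rhog, one of these GTPases, was called higher in HOXA9 OFF (0.68 ± 0.146, adjusted p = 0.015), and no gene of the list was called without control replicate 1, without control replicate 2 or without HOXA9 OFF replicate 1. CAF-1 OFF against HOXA9 OFF called 0 of the 4 by each of the 3 tests, with 2 at an unadjusted p under 0.05 (42.3% of all genes tested were), and 1 was called without CAF-1 OFF replicate 1 or without HOXA9 OFF replicate 2.

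The enzymes that supply NADPH, the electron donor of the oxidase, had 3 of 9 genes higher and none lower in HOXA9 OFF. These were G6pdx, which opens the pentose phosphate pathway (1.81 ± 0.107, adjusted p = 0.00028), Pgd, its later dehydrogenase (1.29 ± 0.0887, 0.000447), and Idh1 (1.07 ± 0.109, 0.00135). G6pdx went from 121.1 and 111.6 CPM in control to 414.0 and 400.1 in HOXA9 OFF and was at 122.6 and 136.7 in CAF-1 OFF. CAF-1 OFF against HOXA9 OFF called these 3 and Nadk lower, 4 of 9.

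Of the enzymes that use peroxide or guard against it, 4 of 27 tested genes were called higher and 2 lower in HOXA9 OFF, shares close to the 13.0% and 8.97% of all genes tested. The 4 were Epx, the eosinophil peroxidase (5.72 ± 0.472), Gsr (1.52 ± 0.213), Prdx5 (1.34 ± 0.174) and Glrx (1.13 ± 0.158), and the 2 were the peroxiredoxins Prdx2 and Prdx4 (-0.77 ± 0.183 and -0.62 ± 0.119). Mpo, the neutrophil peroxidase that turns the peroxide into hypochlorous acid, was not called, at 6437 and 4109 CPM in control, 7928 and 7264 in CAF-1 OFF, and 8546 and 6673 in HOXA9 OFF. CAF-1 OFF against HOXA9 OFF had 6 of the 27 lower and 2 higher, and it called 4 in all without CAF-1 OFF replicate 1 or without HOXA9 OFF replicate 2.

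The transcription factors described at the Cybb promoter gave 4 of 13 tested genes higher and 1 lower in HOXA9 OFF against control. Sfpi1, the gene of PU.1, rose by 1.55 ± 0.167 (adjusted p = 0.00162), from 187.4 and 154.8 CPM to 559.9 and 439.7. Irf8 rose by 2.49 ± 0.413 (0.00605), from 35.6 and 26.9 CPM to 177.7 and 175.0. IRF8 belongs to the family that binds the IRF element marked above, and PU.1 to the family that binds the ETS core, whose match in the Cybb window fell among the transcribed bases not shown. Cebpe (1.73 ± 0.248) and Cebpb (0.74 ± 0.193) rose as well, and Meis1, a HOX partner, fell by 2.02 ± 0.183 (0.000946), from a mean of 49.6 ± 9.54 CPM to 12.3 ± 1.78 (SD, n = 2).

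In CAF-1 OFF the same factors were read from the levels, as edgeR's quasi-likelihood test called none of the 13 against control. An unadjusted p under 0.05 was reached by 3, against 10.7% of all genes tested, DESeq2 called 1 and edgeR's exact test 2. Irf8 was at 32.9 and 86.0 CPM, a wide gap within the group. Sfpi1 was at 220.0 and 185.1 CPM, overlapping control. Cebpe was at 211.9 and 196.9 CPM against 112.1 and 78.1 in control, and Meis1 at 31.1 and 29.7. Against HOXA9 OFF, CAF-1 OFF had Sfpi1, Irf8 and Hoxa9 lower and Meis1 and Satb1 higher (without HOXA9 OFF replicate 1, 3 were called in all), and Cebpe was at -0.63 ± 0.241 (adjusted p = 0.0925). The study assigns the Hoxa9 reads of these cells to the fusion construct from coverage at a later time, which was not examined here.

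**Figure D4:**
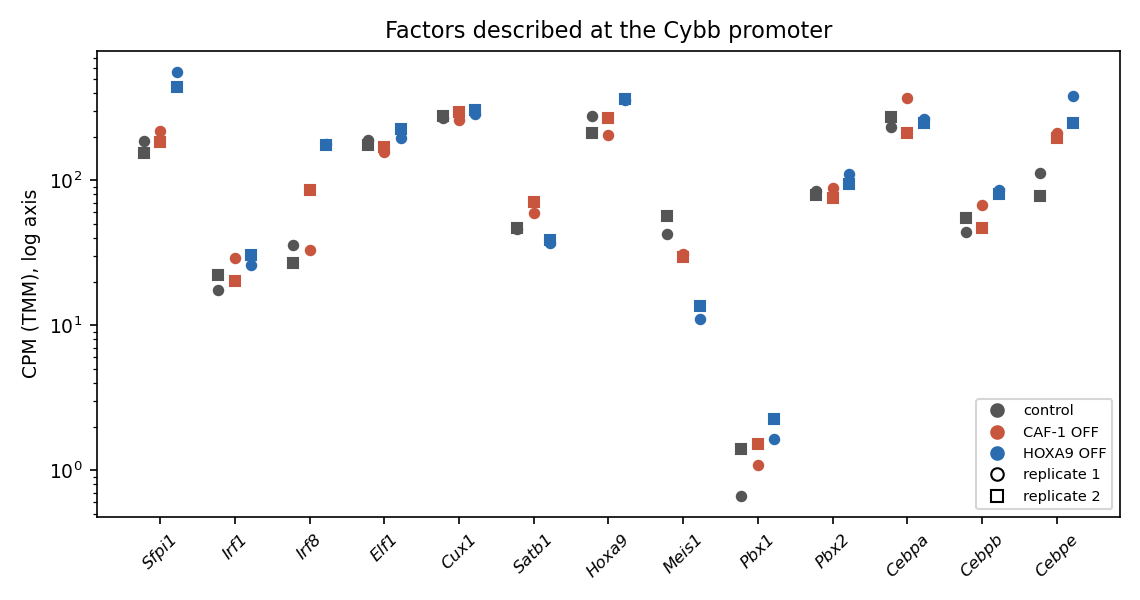
CPM (log axis) of the 13 tested transcription factor genes described at the Cybb promoter, in each library. Sfpi1, Irf8, Cebpb and Cebpe are higher and Meis1 lower in both HOXA9 OFF libraries than in either control library, and for Irf8 the CAF-1 OFF libraries lie apart at 32.9 and 86.0 CPM.

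Markers of maturing cells differed between the groups too. In HOXA9 OFF against control, 7 of 8 tested neutrophil markers were called higher, and 6 of 7 monocyte and macrophage markers were higher and 1 lower. Csf1r, the receptor of macrophage colony-stimulating factor, went from 4.05 and 4.24 CPM to 215.0 and 292.5. The eosinophil and mast cell markers summed to 745 to 1131 CPM in control, 1207 to 1724 in CAF-1 OFF and 3996 to 5392 in HOXA9 OFF. In HOXA9 OFF against control, 2 of 4 tested, Prg2 and Epx, were called higher. Prg2 made up most of the sum in each library, at 4927 and 3560 CPM in HOXA9 OFF. Mcpt8 was lower in HOXA9 OFF, at 24.99 and 21.95 CPM against 34.8 and 32.63 in control. Neither Mcpt8 nor Cpa3 was called in HOXA9 OFF against control. Of 7 progenitor markers, 4 were called lower (Kit, Cd34, Flt3 and Ctsg). The lymphoid markers summed to 95.4 to 103 CPM in control, 119 to 128 in CAF-1 OFF and 5.79 to 7.40 in HOXA9 OFF, where 1 of 2 tested, Ebf1, was called lower. In control and CAF-1 OFF nearly all of that sum was Ebf1, at 94.0 to 120.9 CPM. The megakaryocyte and erythroid markers summed to 19.7 to 21.5, 30.5 to 59.3 and 57.0 to 69.1 CPM in the same order, and 1 of 3 tested, Itga2b, was called higher in HOXA9 OFF. Cd3e, Cd3g and Gp1bb had 0 counts in all libraries.

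In CAF-1 OFF against control, edgeR's quasi-likelihood test called 0 of the 8 neutrophil markers, but 4 had an unadjusted p under 0.05, against 10.7% of all genes tested, and the median log2 fold change of the list was 1.48. DESeq2 and edgeR's exact test each called 3 of them higher, Mmp8, S100a8 and S100a9. S100a8 and S100a9 are also in the list of oxidase activation. Mmp8, the neutrophil collagenase, was at 332.3 and 630.2 CPM against 70.1 and 40.5 in control and made up most of the summed neutrophil level of CAF-1 OFF. Of the monocyte and macrophage markers, 0 of 7 were called, with 2 at an unadjusted p under 0.05, and Ly6c2 (101.8 and 150.5 CPM against 28.9 and 17.2) was called by DESeq2 and by the exact test. Of the megakaryocyte and erythroid markers, 0 of 3 tested were called, with 2 at an unadjusted p under 0.05. DESeq2 and the exact test called Pf4 (14.2 and 9.22 CPM against 2.63 and 2.85). Neither called a gene of the progenitor, eosinophil and mast cell, or lymphoid lists. CAF-1 OFF against HOXA9 OFF had 7 of the 8 neutrophil markers lower and Mmp8 higher, and 4 of the 7 monocyte and macrophage markers lower and 1, Ccr2, higher. Of the eosinophil and mast cell markers, Prg2 and Epx were lower in that comparison and Mcpt8 was higher (1.686 ± 0.375, adjusted p = 0.0172 by edgeR's quasi-likelihood test). How far the share of maturing cells set the oxidase levels was not tested.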

How the data were processed

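The 6 libraries were bulk RNA-seq libraries made with a strand-marking kit. The authors used STAR for alignment to mouse mm9 and HTSeq for counting, and the deposited values are raw counts per gene symbol. The annotation, strand setting and overlap mode are not given in the sources used here. The 5 tally lines were left out of totals and tests. Reads that fell in no gene came to 5.95 to 8.26 per 100 assigned, and ambiguous reads to 3.00 to 3.28. The tally of alignments that were not unique came to 89.6 to 106.7 per 100, so genes with near-copies lose reads. Such a tally can count a read more than once.

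Counts were tested with edgeR 4.0.16 (R 4.3.3) by the quasi-likelihood F test: TMM scaling (factors 0.954 to 1.03), filterByExpr by group, all 6 libraries, 1 mean per group, no replicate block, Benjamini-Hochberg adjustment over 12460 genes. A call needed 1.5-fold and an adjusted p under 0.05, the cutoffs of the study's methods. The SE is the log2 fold change over the square root of F. CPM used TMM library sizes, and Poisson and count-ratio intervals (95%) cover counting error only. DESeq2 1.42.0 was an alternative. The scripts were tested on simulated data.

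Named genes were all members, the called genes and examples of the lists, the 3 nearest profiles of each called member (log2 CPM with a prior count of 2), and marker lists. Members and lists were chosen with earlier results of these data known. Exon lengths and coordinates came from GENCODE on NCBI m37, near-copies from a search at 95% identity and at least 50 bases, and promoters from RefSeq (GRCm38.p6). Some genes that the rule or the lists would name are not reported here.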

Additional observations from a re-analysis of the deposited data

Results flagged for a closer look

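Reads that fell in no annotated gene, a tally outside the gene counts, came to 7.84 and 8.26 per 100 gene-assigned reads in HOXA9 OFF (mean 8.047), above 6.87 and 7.15 in control, with 5.95 and 7.30 in CAF-1 OFF. No test was made of this tally, and its part in the oxidase levels was not tested.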

How the results depend on the processing

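Of 258 refits of single-gene log2 fold changes over the 3 comparisons (6 members), 245 kept their direction and side of the threshold, 3 lost a call, 6 gained one and 4 changed sign. The sign changes were of uncalled genes near 0. Leaving out each library in turn gave, in CAF-1 OFF against control, -0.25 to 0.0082 for Ncf1 and -0.16 to 0.063 for Rac1 (positive without CAF-1 OFF replicate 2) and -0.097 to 0.21 for Rac2 (negative without CAF-1 OFF replicate 1), and in HOXA9 OFF against control, -0.016 to 0.24 for Rac1 (negative without HOXA9 OFF replicate 1). For CAF-1 OFF against control, the members called went from 0 to 1 (Cybb) with DESeq2, with edgeR's exact test and with no expression filter, and the genes of the 5 lists called went from 0 to 3, 4 and 7 in that order, and to 1 with only the 4 libraries compared. Over all genes this comparison called 4, against 192 with DESeq2, 243 with the exact test and 378 with no filter. Leaving out each library left the members called at 0 in that comparison and gave 0 to 2 list genes. At 2-fold and an adjusted p under 0.01, the members called in HOXA9 OFF against control went from 4 to 2, and the list genes called from 29 to 18 there and from 29 to 15 in CAF-1 OFF against HOXA9 OFF. Leaving out each library gave 3 to 5 members called in HOXA9 OFF against control and 4 to 5 in CAF-1 OFF against HOXA9 OFF; a group left with 1 library was assumed to vary like the others. The causes were not tested.

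With the replicate number as a block, the members called were 0, 4 and 4 in the 3 comparisons, as without it. Same-numbered libraries deviated together with a correlation of -0.178 between control and CAF-1 OFF, 0.456 between control and HOXA9 OFF and 0.0329 between the other two, so the numbers were not taken as pairs. With the numbers of CAF-1 OFF crossed, an alternative chosen after seeing the data, the block called 1 member and 2 list genes in CAF-1 OFF against control, and 71 genes in all. Counting depth limits Cybb in control, where 1 and 8 counts set its fold changes.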
